A study of Mus musculus with 4 samples.

Results

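The genes described here encode the machinery that removes the poly(A) tail, cuts off the 5′ cap and degrades the body of mRNA, together with the factors of nonsense-mediated decay (NMD). They were 49 genes of the 49997 in the deposited table, chosen by gene symbol, though with earlier results of these data known. Of these, 48 had enough reads to be tested among 18341 genes. Their transcripts were counted by RNA-seq in E14 mouse embryonic stem cells (ESCs), a pluripotent line grown on gelatin with serum replacement and leukemia inhibitory factor. The control cells (shScramble, 2 libraries) carried a scrambled short hairpin RNA, and the knockdown cells (shYthdf2, 2 libraries) carried a hairpin against Ythdf2. Per the study's methods both were stable lentiviral lines, the libraries were made from poly(A)+ RNA, and the replicates of a group were independent. The study also states that its ESCs carried a tdTomato reporter gene under the promoter of MERVL, an endogenous retrovirus. Which of the study's hairpins the knockdown libraries carried is not given in the sources used here, so an effect of 1 hairpin and an effect of losing Ythdf2 cannot be told apart.

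A typical mRNA is degraded from its tail. The PAN2-PAN3 and CCR4-NOT deadenylases shorten the poly(A) tail, which is covered by poly(A)-binding proteins, and after this the LSM1-7 ring with PATL1 helps to recruit the DCP2 decapping enzyme. The decapped body is then degraded from the 5′ end by XRN1, or from the 3′ end by the exosome, while NMD uses UPF1 and the SMG proteins to send mRNAs with premature stop codons into the same pathways. YTHDF2 is an adaptor to this machinery: it binds N6-methyladenosine (m6A) and contacts CNOT1, the scaffold of CCR4-NOT. The question put to the data is whether the mRNAs of the machinery itself differed between cells with normal and with reduced Ythdf2.

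The targeted gene was lower in both knockdown libraries. In CPM (reads per fixed library total, with TMM scaling between libraries), Ythdf2 was at 93.4 and 87.6 in shScramble and at 31.8 and 30.2 in shYthdf2, which gave a log2 fold change of -1.55 ± 0.11 (SE), at an adjusted p of 0.00069 by edgeR. Library totals ranged from 31113006 to 36422510 reads, and the 49 genes held between 0.877% and 0.92% of them. The summed level of 8 ESC markers was between 5588 and 6264 CPM in all libraries, while markers of endoderm, trophectoderm, neuroectoderm and fibroblasts summed to between 7.07 and 204 CPM per list, with 0 of their genes called. The summed level of 18 markers of 2C-like cells, a rare state resembling the early embryo, was 71.6 and 109 CPM in shScramble and 152 and 401 CPM in shYthdf2. Of the 17 tested, 5 were called higher and 0 lower. The knockdown libraries thus differed from each other in this content, whose part in the results below was not tested, and in bulk RNA more cells of a type and more RNA per cell cannot be told apart.

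Because YTHDF2 reads m6A, which is often placed in a GGACU context near stop codons, the transcripts of the decay genes were searched for that sequence. The letters GGACT were looked for on the transcript strand within 200 bases on either side of the stop codon, in the GENCODE M21 transcript with the longest coding sequence (build mm10). They were found in 7 of the 49 genes (14.3%), against 5524 of 14049 tested genes with a coding transcript (39.3%). The site nearest the stop codon in each of the 7 genes is shown with GGACT in capitals, since these are the transcripts of the machinery that hold the sequence in that window.
Cnot8, chr11:58117523-58117543, plus strand, coding exon, 55 bases before the end of the stop codon: gaggatgtGGACTgtgcccag
Cnot11, chr1:39545129-39545149, plus strand, coding exon, 127 bases before it: aacgtgcaGGACTtgtttata
Tob2, chr15:81850540-81850560, minus strand, 3′ UTR, 179 bases after it: caagtgttGGACTcagcccct
Pan2, chr10:128320394-128320414, plus strand, coding exon, 73 bases before it: cgaaagatGGACTggaaggtg
Exosc2, chr2:31680582-31680602, plus strand, 3′ UTR, 22 bases after it: gaaggatgGGACTgggcaccc
Exosc4, chr15:76329701-76329721, plus strand, coding exon, 4 bases before it, so that the match runs into the stop codon: tcactgggGGACTgagtggca
Exosc10, chr4:148582315-148582335, plus strand, 3′ UTR, 11 bases after it: tgctggagGGACTcctggggc
Distances run from the A of the match to the last base of the stop codon. Of the 9 decay genes with an unadjusted p under 0.05 in the comparison below, Exosc4 is the one among these 7. A match describes the letters only, and methylation of these sites was not analysed here.

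The levels of the decay genes in ESCs spanned a wide range. On the TPM scale, which divides reads by exon length so that genes can be compared, the highest was Pabpc1, the main cytoplasmic poly(A)-binding protein, at 2554, 2531, 2505 and 2506 TPM in shScramble replicates 1 and 2 and shYthdf2 replicates 1 and 2. The knockdown libraries were just below the controls on this scale, while in CPM the groups overlapped. Lsm3 at 264 to 356 TPM, the relative Pabpc4 at 249 to 290 TPM, Cnot1 at 186 to 295 TPM and Lsm4 at 227 to 294 TPM lay well below it, and the ranges of these 4 genes overlapped. At the low end, the decapping cofactor Dcp1b was at 5.45, 5.27, 5.50 and 4.29 TPM in the same order. Cnot4, a ubiquitin ligase associated with CCR4-NOT, was next at 5.88 to 6.25 TPM. The exon length used for Cnot4 covers all its annotated exons (25681 bases). Its transcript with the longest coding sequence has 2133 coding and 1060 3′ UTR bases, so its low place in TPM depends on the annotated length. Btg4, an oocyte adaptor of CCR4-NOT, had 3 and 0 reads in shScramble and 0 and 2 reads in shYthdf2, and was too low to be tested. A count of 0 allows a level of up to 3 reads, where counting error alone is considered. By library total without TMM scaling, this is 0.0964 CPM in shScramble replicate 2 and 0.0862 CPM in shYthdf2 replicate 1.

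**Figure D1:**
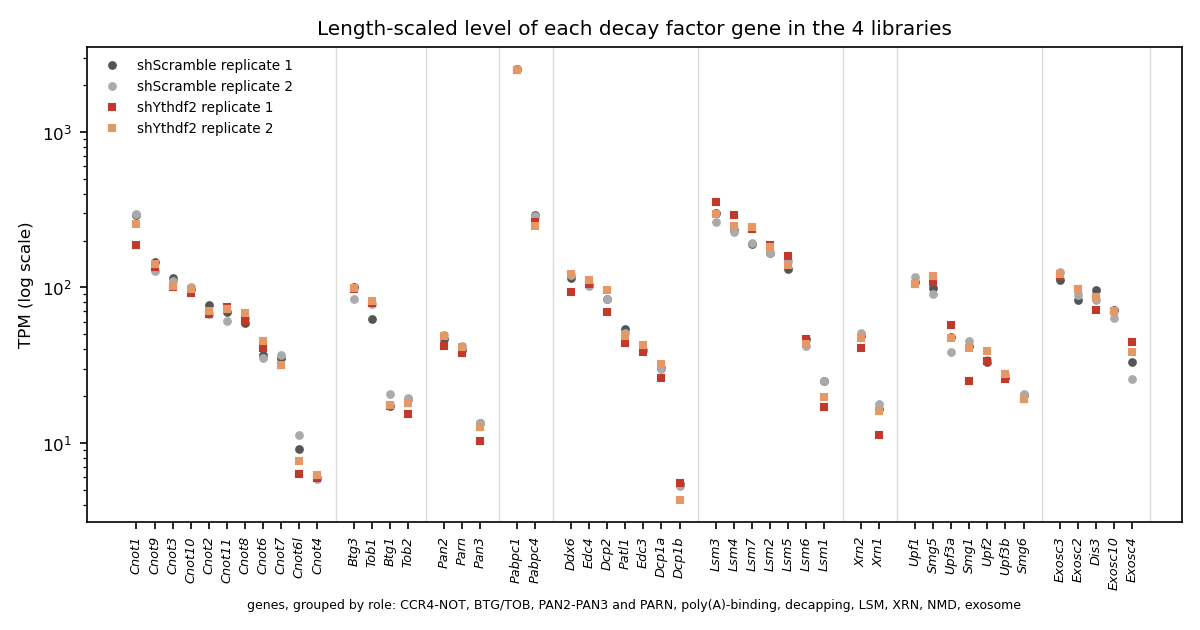
Level of each tested decay gene in the 4 libraries on a log scale (TPM, vertical axis), with genes grouped by role and sorted by mean level (horizontal axis). Points are single libraries. Btg4, at or under 0.0575 TPM in each library, was not tested and is not drawn. Pabpc1 stands at the top (2505 to 2554 TPM) and Dcp1b is the lowest tested gene (4.29 to 5.50 TPM).

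In the main test, edgeR over all genes, no decay gene passed the threshold. Of the 48 tested genes, 0 were higher and 0 were lower at an edgeR adjusted p under 0.05, where 3.91% of all tested genes were called (445 genes higher, 2.43%, and 273 lower, 1.49%). At an unadjusted p under 0.05, 4 were higher and 5 were lower, or 18.75% of the tested members, beside 20.8% of all genes (11.0% higher and 9.80% lower). DESeq2 called 2 members at its own adjusted p under 0.05, Cnot1 and Cnot6l, both lower, where it called 8.90% of the genes it gave an adjusted p. Under the study's criteria (DESeq2 unadjusted p of at most 0.05 and a change of at least 1 on the log2 scale), 0 members were called, beside 2.88% of all genes. Leaving out 1 library at a time gave calls that depended on the library. Without shScramble replicate 1, 1 member was higher (Exosc4) and 1 lower (Cnot6l), where 6.60% of all genes were called. Without shScramble replicate 2 and without shYthdf2 replicate 1, 0 members were called, where 4.29% and 5.95% of all genes were. Without shYthdf2 replicate 2, 5 members were higher (Lsm3, Lsm4, Lsm7, Upf3a and Exosc4) and 4 lower (Cnot1, Cnot6l, Xrn1 and Smg1), where 11.8% of all genes were called.

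The direction of change was evenly split. The log2 fold change was above 0 in 25 members and below 0 in 23, and above 0 in 50.2% of all tested genes. Its median was 0.01 over the members and 0.00 over all genes, and it ran from -0.50 for Cnot6l to 0.54 for Exosc4. It was smaller than 0.2 in size for 33 of the 48 members, beside 41.6% of all genes, whose median SE (0.21) was larger than that of the members (0.11). The 2 groups did not overlap in 27 members (56.25%), 14 higher and 13 lower in shYthdf2, beside 51.8% of all genes (26.2% higher and 25.5% lower).

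**Figure D2:**
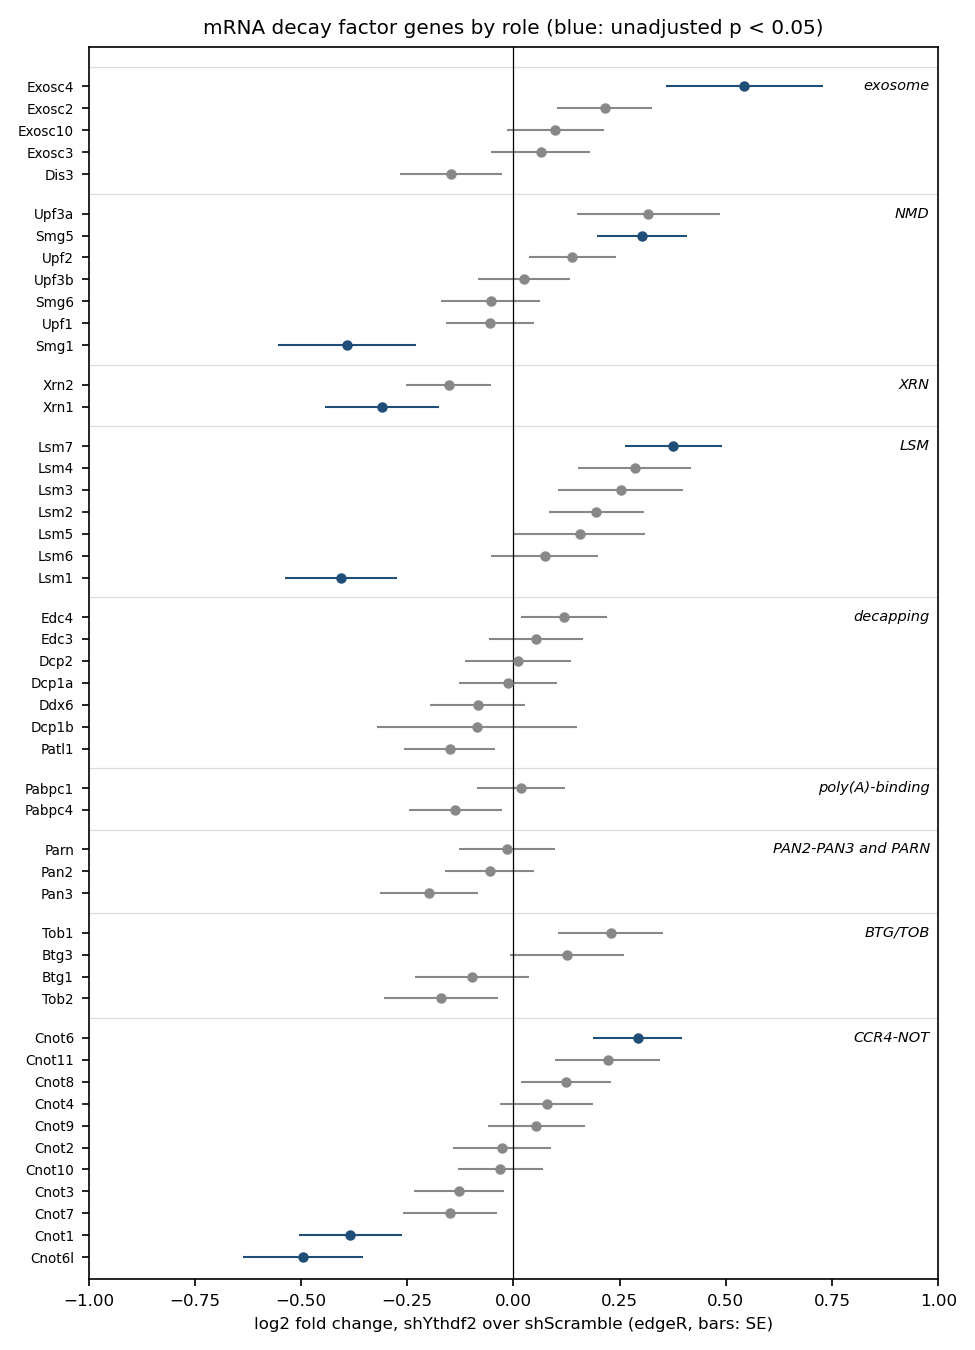
Log2 fold change of each tested decay gene in shYthdf2 over shScramble (horizontal axis), grouped by role, with bars giving the SE of the edgeR fit over 4 libraries. Blue marks an unadjusted p under 0.05. The 9 blue genes stand on both sides of 0, between -0.50 and 0.54, and the 7 decapping genes lie within 0.2 of 0.

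In CCR4-NOT, Cnot1 and Cnot6l were lower in both knockdown libraries and Cnot6 was higher, and none of them passed the edgeR test. Cnot1, whose long protein carries the other subunits and binds YTHDF2, is encoded at chr8:95718931-95808113 (mm10, minus strand). It was at 1135 and 1109 CPM in shScramble and at 765 and 955 CPM in shYthdf2. Both knockdown libraries were below both controls, and replicate 1 was the lower of them. Of its exon bases, 8.94% overlap other genes, which the counting could not separate by strand. The log2 fold change was -0.38 (SE 0.12, 76.6% of control), with an unadjusted p of 0.010 and an edgeR adjusted p of 0.11, while the DESeq2 adjusted p was 0.032. Without shYthdf2 replicate 1 the log2 fold change was -0.23 and without shYthdf2 replicate 2 it was -0.55, and the latter passed the threshold (edgeR adjusted p = 1.26e-05). Over all 16 other settings the adjusted p ran from 1.26e-05 to 0.26.

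The exchangeable catalytic subunits of CCR4-NOT had opposite signs. Cnot6l, a poly(A) nuclease of the CCR4 type, was at 35.9 and 42.7 CPM in shScramble and at 26.4 and 29.3 CPM in shYthdf2, which gave a log2 fold change of -0.50 ± 0.14 (SE), at an adjusted p of 0.085 by edgeR (DESeq2 adjusted p = 0.035). Its paralog Cnot6 was at 87.1 and 81.2 CPM in shScramble and at 103 CPM in both shYthdf2 libraries, which gave a log2 fold change of 0.29 ± 0.11 (SE), at an adjusted p of 0.15 by edgeR. The groups did not overlap in either gene. The ratio of Cnot6 to Cnot6l in TPM was 4.05 and 3.17 in shScramble and 6.47 and 5.88 in shYthdf2, a difference of 0.79 on the log2 scale. An exact permutation test over 2 libraries per group cannot give a two-sided p below 0.333, which is the value obtained here (0.467 after Benjamini-Hochberg adjustment over 7 pairs).

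The other deadenylase pair of the complex, Cnot7 and Cnot8 of the CAF1 type, had log2 fold changes of -0.15 and 0.12. The Cnot7 to Cnot8 ratio was 0.601 and 0.58 in shScramble and 0.519 and 0.459 in shYthdf2 (exact permutation p = 0.333). The 6 remaining subunits, Cnot2, Cnot3, Cnot4, Cnot9, Cnot10 and Cnot11, all had an unadjusted p above 0.05, with log2 fold changes from -0.13 for Cnot3 to 0.22 for Cnot11. Cnot11, which docks with Cnot10 at one end of the scaffold, had an SE of 0.12. For Cnot3, 26.2% of exon bases overlap other genes. The summed level of the 11 subunits was 943 and 913 TPM in shScramble and 801 and 898 TPM in shYthdf2, and the gap to the controls was larger in shYthdf2 replicate 1 than in replicate 2. The mean of this sum went from 928 TPM in shScramble to 849 TPM in shYthdf2, and that of Cnot1 alone from 294 to 221 TPM. Most of the difference in the sum was thus in Cnot1.

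The tested members of the BTG/TOB, PAN2-PAN3, PARN and poly(A)-binding groups all had an unadjusted p above 0.05. The BTG/TOB adaptors, antiproliferative proteins that join CCR4-NOT to poly(A)-binding protein, had log2 fold changes of 0.23 for Tob1, 0.13 for Btg3, -0.10 for Btg1 and -0.17 for Tob2. The Tob1 to Tob2 ratio was 3.27 and 4.01 in shScramble and 5.12 and 4.50 in shYthdf2, a difference of 0.41 on the log2 scale (exact permutation p = 0.333). Pan2, Pan3 and the nuclear deadenylase Parn were at -0.06, -0.20 and -0.02. Pabpc1 was at 0.02 and Pabpc4 at -0.14, and the ratio between them was 8.81 and 8.78 in shScramble and 9.53 and 10.1 in shYthdf2. Read counts of Pabpc4 and Btg3 are uncertain, since 24.7% and 15.7% of their 150-base windows also occur in another annotated gene.

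**Figure D3:**
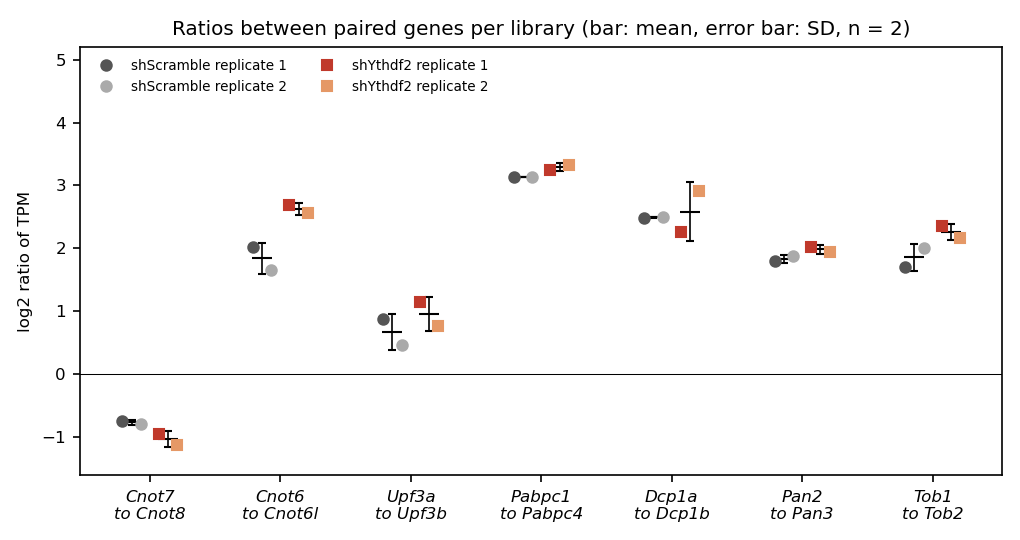
Log2 ratio of TPM between the members of 7 gene pairs in each library (vertical axis), with the mean as a horizontal bar and the SD as an error bar (n = 2 per group). The ratio of Cnot6 to Cnot6l is higher in both shYthdf2 libraries (6.47 and 5.88) than in both controls (4.05 and 3.17), and the groups overlap for Upf3a to Upf3b and for Dcp1a to Dcp1b.

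The 7 decapping genes comprise the enzyme Dcp2, its cofactors Dcp1a and Dcp1b, the enhancers Edc3 and Edc4, the helicase Ddx6 and the scaffold Patl1. All had a log2 fold change within 0.2 of 0, from -0.15 for Patl1 to 0.12 for Edc4, with a median of -0.01. This range did not hold with 1 library left out: Dcp1b was at -0.35 without shYthdf2 replicate 1, Ddx6 at -0.21 without shYthdf2 replicate 2 and Patl1 at -0.21 without shScramble replicate 2. The median of the 7 was 0.06 without shYthdf2 replicate 1 and -0.10 without shYthdf2 replicate 2. Dcp2 was at 293 and 283 CPM in shScramble and at 256 and 324 CPM in shYthdf2, so that the knockdown libraries lay on either side of the controls. Their summed level was 432 and 430 TPM in shScramble and 383 and 458 TPM in shYthdf2.

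In the LSM ring, which binds the shortened tail ahead of decapping, Lsm1 stood apart from the other subunits. Lsm1, the subunit that makes the ring cytoplasmic, was at 35.4 and 34.2 CPM in shScramble and at 25.6 and 27.0 CPM in shYthdf2, which gave a log2 fold change of -0.41 ± 0.13 (SE), at an adjusted p of 0.12 by edgeR. Lsm7, a subunit shared with the nuclear ring of the spliceosome, was at 46.1 and 45.3 CPM in shScramble and at 61.3 and 57.4 CPM in shYthdf2, which gave a log2 fold change of 0.38 ± 0.11 (SE), at an adjusted p of 0.099 by edgeR. The groups did not overlap in either gene, and the knockdown libraries of each lay close together. The shared subunits Lsm2 to Lsm6 had log2 fold changes between 0.07 and 0.29, so 6 of the 7 subunits were above 0 and Lsm1 was not. Lsm5 and Lsm6 turned to -0.02 and -0.05 without shYthdf2 replicate 1. The median of the 7 was 0.19, but it was 0.04 without shYthdf2 replicate 1 and 0.31 without shYthdf2 replicate 2. It was 0.14 with the correction for length described below. The 7 genes summed to 1090 and 1064 TPM in shScramble and to 1299 and 1177 TPM in shYthdf2. Lsm1 held 24.9 TPM of this in both shScramble libraries, and 17.0 and 19.7 TPM in shYthdf2. The sum thus lies mostly in the shared subunits and is not a level of the cytoplasmic ring.

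Both 5′ to 3′ exonucleases were lower in the knockdown libraries, and neither passed the test. Xrn1, the cytoplasmic enzyme, was at 84.9 and 88.6 CPM in shScramble and at 61.1 and 78.8 CPM in shYthdf2, which gave a log2 fold change of -0.31 ± 0.13 (SE), at an adjusted p of 0.23 by edgeR. The nuclear enzyme Xrn2 was at -0.15 (SE 0.10). The lower value of Xrn1 came mainly from shYthdf2 replicate 1: its log2 fold change was -0.14 without that library and -0.51 without shYthdf2 replicate 2.

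Among the exosome subunits, which degrade RNA from the 3′ end, Exosc4 had the largest log2 fold change of all members. This ring subunit was at 23.9 and 17.9 CPM in shScramble and at 34.2 and 26.7 CPM in shYthdf2, which gave a log2 fold change of 0.54 ± 0.18 (SE), at an adjusted p of 0.13 by edgeR. The gap between the control replicates was wide, and leaving out shScramble replicate 1 gave a value of 0.77 and leaving out replicate 2 one of 0.35. Of its exon bases, 13.2% overlap Oplah, a metabolic gene, and the counting used no strand. The ring subunits Exosc2 and Exosc3 and the nuclease Exosc10 were between 0.06 and 0.22, and the catalytic subunit Dis3 was at -0.15.

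The NMD factors were divided. Smg1, the kinase that phosphorylates UPF1, was at 278 and 291 CPM in shScramble and at 175 and 260 CPM in shYthdf2, which gave a log2 fold change of -0.39 ± 0.16 (SE), at an adjusted p of 0.21 by edgeR. Most of this difference was in shYthdf2 replicate 1, since the value was -0.13 without that library and -0.71 without shYthdf2 replicate 2. Smg5, which helps to return UPF1 to its dephosphorylated form, was at 234 and 207 CPM in shScramble and at 272 and 271 CPM in shYthdf2, which gave a log2 fold change of 0.30 ± 0.11 (SE), at an adjusted p of 0.14 by edgeR. Both knockdown libraries of Smg5 lay above both controls. Upf1, the helicase at the centre of NMD, which is also reported to act in YTHDF2-bound mRNA decay, was at 211 and 219 CPM in shScramble and at 217 and 197 CPM in shYthdf2. Its groups overlapped and its log2 fold change was -0.06 (SE 0.10, edgeR adjusted p = 0.82). Upf2, Upf3a, Upf3b and the endonuclease Smg6 were at 0.14, 0.32, 0.02 and -0.05, and 28.2% of the exon bases of Smg6 overlap other genes. The value of Upf3a came with wide spread, as it was at 43.6 and 34.0 CPM in shScramble and at 55.0 and 41.7 CPM in shYthdf2, and the groups overlapped.

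**Figure D4:**
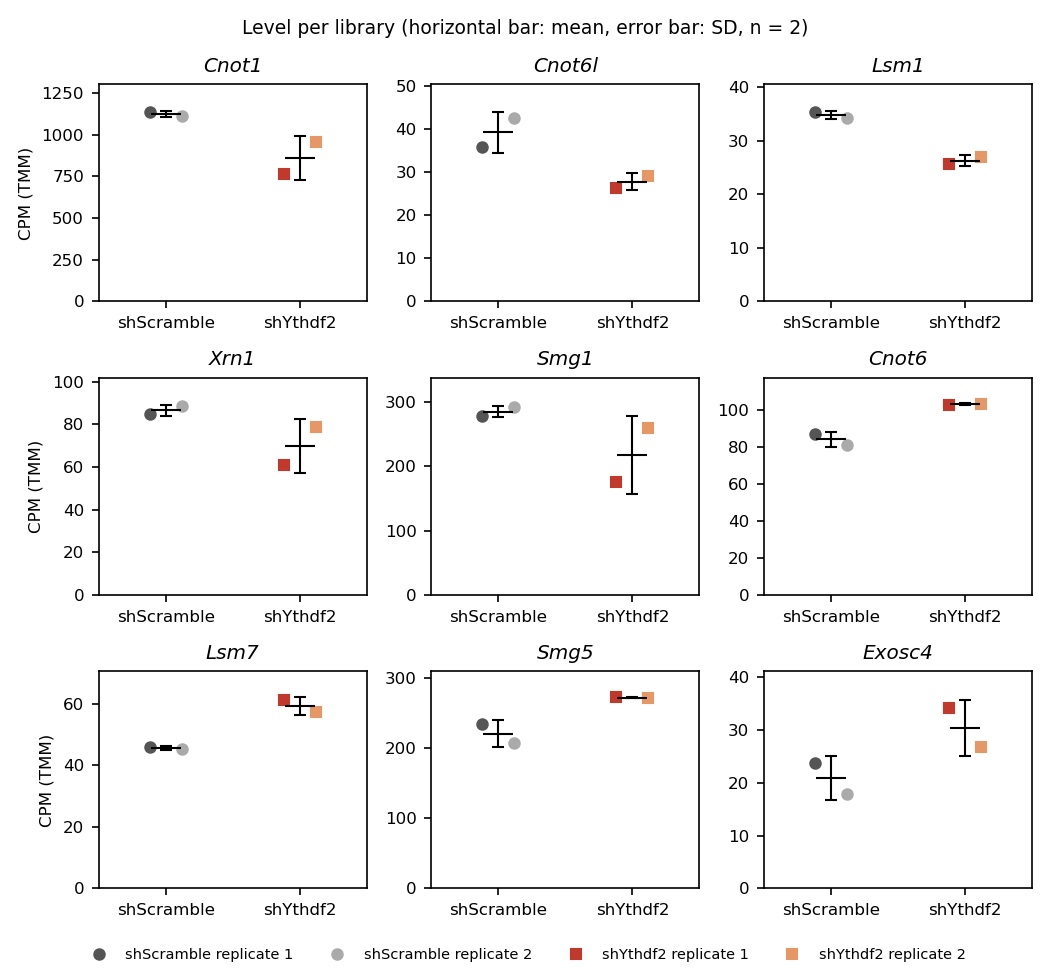
Level of the 9 decay genes with an unadjusted p under 0.05 in each library (CPM after TMM scaling, axes from 0), with the mean as a horizontal bar and the SD as an error bar (n = 2 per group). Cnot1, Xrn1 and Smg1 are lowest in shYthdf2 replicate 1 (765, 61.1 and 175 CPM), while the knockdown libraries of Cnot6, Lsm1, Lsm7 and Smg5 lie close together.

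The differences among the members went with annotated exon length. Across the 48 tested members, the rank correlation of the log2 fold change with exon length was -0.57, given as a description over genes that share the same 4 libraries. It was -0.63 between the libraries numbered 1 and -0.34 between those numbered 2. Smg1 (16415 bases), Xrn1 (12667), Cnot6l (9783) and Cnot1 (9617) were among the longest members and were lower, while Lsm7 (603) and Exosc4 (1789) were short and higher. These lengths cover all annotated exons of a gene and not 1 transcript. The longest member by this measure, Cnot4 (25681 bases), was at 0.08. Its transcript with the longest coding sequence has only 2133 coding and 1060 3′ UTR bases, so it is not shown to be a long mRNA. The same holds for Cnot6l, whose transcript chosen in that way has 1668 coding and 1443 3′ UTR bases. For Xrn1 these lengths are 5172 and 218 bases, for Cnot1 7131 and 956, and for Smg1 10977 and 4233. Upf2 (8658 annotated exon bases) and Dcp2 (8643) were at 0.14 and 0.01. Lsm1, with 3518 bases, was lower without being long, and Cnot6 and Smg5, with 5876 and 5874 bases, were higher without being short. A trend with length was present over all genes and was strongest in 1 library. In shYthdf2 replicate 1 the median deviation from a gene's mean level was 0.15 (log2) for exon lengths up to 1 kb and -0.17 above 16 kb. In shYthdf2 replicate 2 the same medians were -0.05 and 0.07. The mean is over the same 4 libraries, so a fall in 1 of them by itself makes the others rise on average.

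After each library's own trend with length was removed, a correction added once the data had been seen, the correlation over the members was -0.40. Cnot1 was then at -0.31 (SE 0.09, edgeR adjusted p = 0.077), Cnot6l at -0.42, Xrn1 at -0.23 and Smg1 at -0.33. Lsm1 was at -0.42, Cnot6 at 0.33, Smg5 at 0.34, Lsm7 at 0.32 and Exosc4 at 0.49, so all 9 genes kept the sign of their difference. In that fit 0 members were called at an adjusted p under 0.05, where 5.57% of all genes were, and 5 were higher and 5 lower at an unadjusted p under 0.05, where 22.0% of all genes were. The added gene was Upf2. The cause of the trend was not tested.

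**Figure D5:**
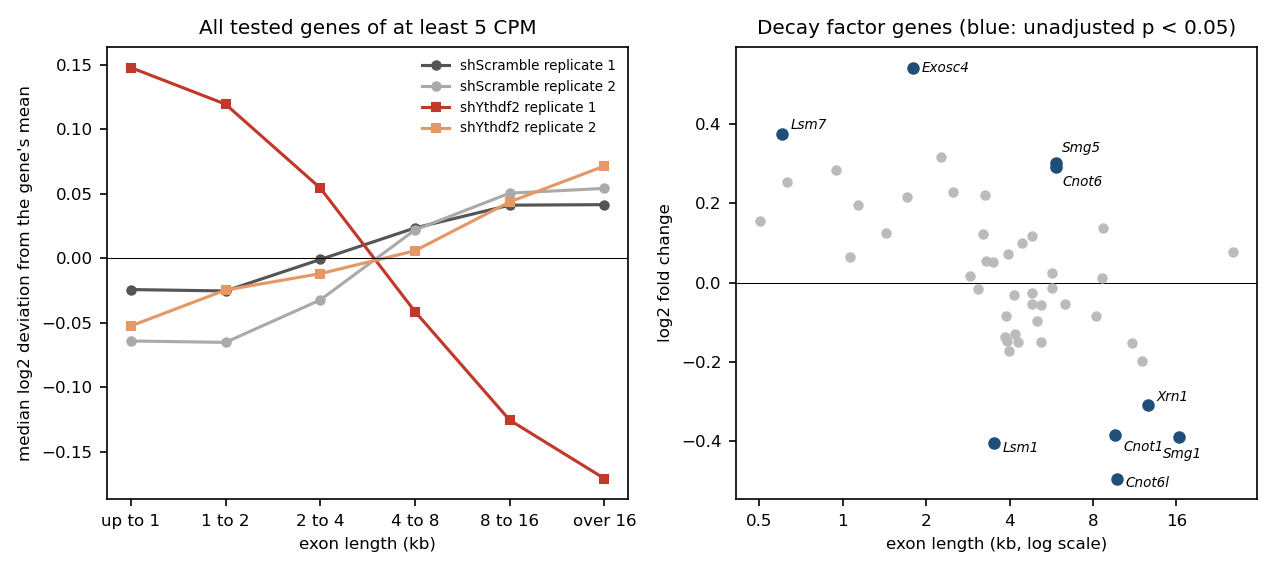
Left, median log2 deviation from the gene's mean level (vertical axis) in each library by exon length class (horizontal axis), over tested genes of at least 5 CPM. Right, log2 fold change of the 48 decay genes against exon length on a log scale, with the 9 genes at an unadjusted p under 0.05 in blue. On the left the line of shYthdf2 replicate 1 falls from 0.15 to -0.17. Deviations are taken from the mean of the plotted libraries, so this fall makes the other lines rise on average. On the right Smg1, Xrn1, Cnot1 and Cnot6l are long by annotated exons, though not all by transcript, and below 0.

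Around this core, 83 further decay genes were listed: other deadenylases and tail factors, P-body proteins, NMD and exon junction factors, exosome cofactors and RNA-binding recruiters of CCR4-NOT. Of the 79 tested, 2 were higher and 1 was lower at an edgeR adjusted p under 0.05, beside 3.91% of all genes, with a median log2 fold change of -0.02. Btg2, a further antiproliferative adaptor of CCR4-NOT, rose from 41.5 and 32.9 CPM in shScramble to 101 and 72.0 CPM in shYthdf2, which gave a log2 fold change of 1.22 ± 0.17 (SE), at an adjusted p of 0.0084 by edgeR, and Btg2 was called in each of the 16 other settings. Dis3l, the catalytic subunit of a cytoplasmic exosome, rose from 22.6 and 21.2 CPM to 33.1 and 33.4 CPM, which gave a log2 fold change of 0.60 ± 0.14 (SE), at an adjusted p of 0.042 by edgeR. Zcchc7, a zinc-finger cofactor of nuclear RNA surveillance, fell from 53.8 and 55.9 CPM to 37.0 and 37.4 CPM, which gave a log2 fold change of -0.56 ± 0.12 (SE), at an adjusted p of 0.032 by edgeR. Of the 16 other settings, 14 called Dis3l and 14 called Zcchc7, and the highest adjusted p-values were 0.13 and 0.14.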

How the data were processed

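RNA-seq of 4 libraries (2 shScramble, 2 shYthdf2, grouped and numbered by title) was analysed from the table of raw read counts per gene that the authors deposited, with no normalization and no pooling. Per the file headers the counts came from featureCounts 2.0.3 over RefSeq exons of mm10, without strand and counting reads, not pairs. The submitters' processing notes name fastp 0.19.4, HISAT2 2.2.1 and DESeq2 1.40.2. Reads placed at several sites were left out by default, which lowers genes with near-identical copies. All columns were used (0 others).

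Counts were tested with edgeR 4.0.16 in R 4.3.3 (quasi-likelihood F test, two-sided, TMM, filterByExpr with a minimum count of 10 and a minimum total of 15, Benjamini-Hochberg over 18341 genes). The coefficient of biological variation was 15.8%. The code was tested on simulated data. TPM was computed from counts and exon length on the primary chromosome, because 4 members (Cnot8, Lsm2, Lsm4 and Exosc10) are also listed on an extra contig. Intervals and floors cover counting error only. Alternatives were RLE, upper-quartile and total scaling, other filters, DESeq2 1.42.0, limma-voom (limma 3.58.1), halved counts, a replicate block, each library left out, CPM in place of TPM, and, after the data were seen, a correction for length. The length correction used a lowess of each library's log2 deviation on log2 exon length (span 0.3, prior count of 2).

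The members and lists were chosen with earlier results of these data known, so no test of a list is reported and summed levels are given as values. Values in every library are given for Cnot1, Upf1, members with an unadjusted p under 0.05 or an adjusted p under 0.05 in edgeR or DESeq2, the highest and lowest TPM, and outside the members for Ythdf2 and further decay genes with an adjusted p under 0.05. Dcp2, Btg4 and Upf3a were added after their values were seen.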

Additional observations from a re-analysis of the deposited data

How the results depend on the processing

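Ythdf2 kept its call in all 16 other settings, and Cnot1 and the other 8 decay genes with an unadjusted p under 0.05 kept their sign in all of them. With no filter on low counts, 1095 genes were higher and 843 lower, (6.34% of 30565), with 1 (Exosc4) and 3 (Cnot1, Cnot6l and Smg1) decay genes among them and 7 higher at an unadjusted p (8.06% of all genes), and Cnot1 was called at -0.38. DESeq2 called 800 higher and 602 lower, with 2 decay genes lower, and Cnot1 at -0.385. The replicate numbers are shared by the groups, but the labels name no common batch and there are only 2 pairs (correlation of deviations 0.225). With the replicate block, 1851 genes were higher and 1674 lower, (19.2% of all genes), with 6 decay genes higher (Cnot6, Lsm4, Lsm7, Upf3a, Smg5 and Exosc4), 5 lower (Cnot1, Cnot6l, Lsm1, Xrn1 and Smg1) and 10 higher at an unadjusted p (15.7% of all genes), and Cnot1 was at -0.39 (adjusted p = 0.00075). Leaving out 1 library assumes that the lone sample varies like the other group. It gave 534 to 1175 genes higher and 300 to 1113 lower, 0 to 5 decay genes higher and 0 to 4 lower, 1 to 10 higher and 3 to 5 lower at an unadjusted p (8.17% to 12.0% and 5.82% to 12.1% of all genes), a median from -0.018 to 0.037 and Cnot1 from -0.55 to -0.23. The calls were Exosc4 and Cnot6l without shScramble replicate 1. Without shYthdf2 replicate 2 they were Lsm3, Lsm4, Lsm7, Upf3a and Exosc4, higher, and Cnot1, Cnot6l, Xrn1 and Smg1, lower, with 11.8% of all genes called. The length correction without shYthdf2 replicate 1 gave 473 genes lower. The length correction without shYthdf2 replicate 2 gave 869 higher and 622 lower (7.68% of all genes). Among these, 2 decay genes were higher (Smg5 and Exosc4) and 2 lower (Cnot1 and Smg1). In that fit 9 decay genes were higher at an unadjusted p (11.0% of all genes), the member median was 0.059 and Cnot1 was at -0.39. Signs near 0 turned: Pabpc1 ran from -0.052 to 0.083 with 1 library left out, and was at -0.017 with the length correction and at -0.077 with that and without shYthdf2 replicate 1. With 1 library left out, Upf1 ran from -0.13 to 0.013 and Dcp1b from -0.35 to 0.14, and with the length correction and without shYthdf2 replicate 2 they were at 0.062 and 0.16. The member median was -0.00 under upper-quartile scaling, where 1 member changed sign. The cause of these differences was not tested. With 2 libraries per group, the median SE of a member was 0.11 on the log2 scale.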

Other observations

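Further decay genes that did not pass the edgeR test at an adjusted p under 0.05 held a pair of partners with the same sign, named after their values were seen. Gigyf1 and Gigyf2, scaffolds that join translational repression to mRNA decay, were at 148 and 170 CPM and at 220 and 239 CPM in shScramble, and at 115 and 121 CPM and at 162 and 193 CPM in shYthdf2. Their log2 fold changes were -0.43 (edgeR adjusted p = 0.064) and -0.37 (edgeR adjusted p = 0.11), the DESeq2 adjusted p-values were 0.012 and 0.046, and both genes were lower in all 4 fits that left out 1 library. Zfp36, an RNA-binding protein that brings CCR4-NOT to AU-rich mRNAs, was at 11.2 and 16.1 CPM in shScramble and at 7.05 and 8.66 CPM in shYthdf2, a log2 fold change of -0.79 (edgeR adjusted p = 0.091, DESeq2 adjusted p = 0.030). Tnks1bp1, a protein that binds CCR4-NOT, was at 21.2 and 20.5 CPM in shScramble and at 31.1 and 30.2 CPM in shYthdf2, a log2 fold change of 0.56 (edgeR adjusted p = 0.058, DESeq2 adjusted p = 0.015). With the length correction, Tnks1bp1 and Gigyf1 passed in edgeR (adjusted p = 0.031 and 0.0496), where 5.57% of all genes were called. In DESeq2, 7 of the 79 tested further decay genes had an adjusted p under 0.05, beside 8.90% of all genes it gave an adjusted p.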
